A study of Mus musculus with 123 samples.

Results

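The comparison described here set liver RNA of mice on a high fat diet (HFD) against that of mice on a low fat diet (LFD) at 1 point of the liver clock, under 3 photoperiods. It took in 20 libraries, 9 of the 61 HFD and 11 of the 62 LFD libraries of the study: HFD Equal light ZT0, HFD Long light ZT4 and HFD Short light ZT20 with 3 libraries each, and LFD Equal light ZT0 with 3, LFD Long light ZT4 with 4 and LFD Short light ZT20 with 4 (ZT, zeitgeber time in hours). The times were chosen by clock phase, measured in these same libraries: the clock genes of Long light livers ran about 4 h later, and those of Short light livers about 4 h earlier, than those of Equal light livers on the labelled scale. The whole study crossed both diets with the 3 photoperiods and 6 times that lie 4 h apart. The sources used here do not give the hours of light, the event counted as ZT0, the diets' make-up and duration, or the strain, sex and age of the mice. Animals are not named in the labels, so p-values measure the spread between these libraries, which may be technical.

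Liver genes follow the day both through the clock inside hepatocytes and through feeding, so a diet difference can depend on the hour of sampling, and the same labelled hour can be a different hour of the clock under another light schedule. In the mouse liver the clock runs on a loop in which ARNTL (BMAL1) and CLOCK or NPAS2 drive the Per, Cry and Nr1d1 genes, whose products then repress ARNTL and CLOCK or the Arntl gene itself. A high fat diet is known to lower lipogenic gene expression relative to carbohydrate-rich low fat food and to raise genes of fatty acid oxidation. Liver lobules are zoned: hepatocytes around the central vein carry a set of genes kept on by Wnt signalling, and those around the portal vein carry another.

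Values are log2 CPM (read counts scaled to a common library size, on a log2 scale), as deposited by the authors, and a difference is HFD minus LFD on that scale. Genes were called at a Benjamini-Hochberg adjusted p under 0.05 in limma with photoperiod as a block, over the 13494 genes that reached 1 CPM in 3 or more libraries. Depth recovered from the deposited values ran from 20.50 M to 29.63 M reads, with a mean of 22.73 ± 2.68 M in HFD and 24.13 ± 2.98 M in LFD libraries (SD, n = 9 and 11). The mean of 12 hepatocyte marker genes lay between 11.72 and 11.89 log2 CPM in HFD livers and between 11.67 and 11.95 in LFD livers, as the tissue label says. Pancreas acinar markers were above a mean of 4 log2 CPM in 1 HFD library (Long light replicate 3, 5.19) and in 3 LFD libraries (Equal light replicate 3, 4.14, Long light replicate 4, 7.03, and Short light replicate 1, 4.02). LFD Equal light replicate 3 stood apart further, with the highest mean of macrophage markers (4.94) and of cholangiocyte markers (3.87). It also had the lowest weight (0.16) when libraries were weighted by their distance from the fit of photoperiod and diet. In tissue RNA of this kind, fewer cells of a type and less RNA per cell cannot be told apart.

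The clock values that chose the libraries are given here as a description. Over the 15 clock genes with a 24 h cosine amplitude of at least 0.5 log2 CPM in every photoperiod, the peak in Long light came a median of 4.7 h after that in Equal light (3.3 to 5.5 h). In Short light the median was -3.5 h (-5.0 to -2.2 h). At the matched times the 3 photoperiod means of a clock gene spanned a median of 0.44 log2 CPM (0.17 to 1.66 over 19 genes), against 1.70 (0.27 to 5.33) where all libraries were titled ZT0. The span was smaller at the matched times for 17 of the 19 genes, the exceptions being Bhlhe40 and Per2. Arntl averaged 5.33, 5.42 and 5.24 log2 CPM in Equal, Long and Short light at the matched times, but 5.33, 5.25 and 3.50 at labelled ZT0. The match was less close for Nr1d1, the gene of the repressor REV-ERB alpha, at 4.07, 4.46 and 5.74 log2 CPM in Equal, Long and Short light. Diet differences of the clock genes themselves did not pass the test for any of the 19. They were -0.06 for Arntl, 0.94 ± 0.362 for Nr1d1, -0.79 ± 0.249 for Per1 and -0.57 ± 0.148 for Usp2 (SE; limma, adjusted p = 0.777, 0.235, 0.14 and 0.0838).

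**Figure D1:**
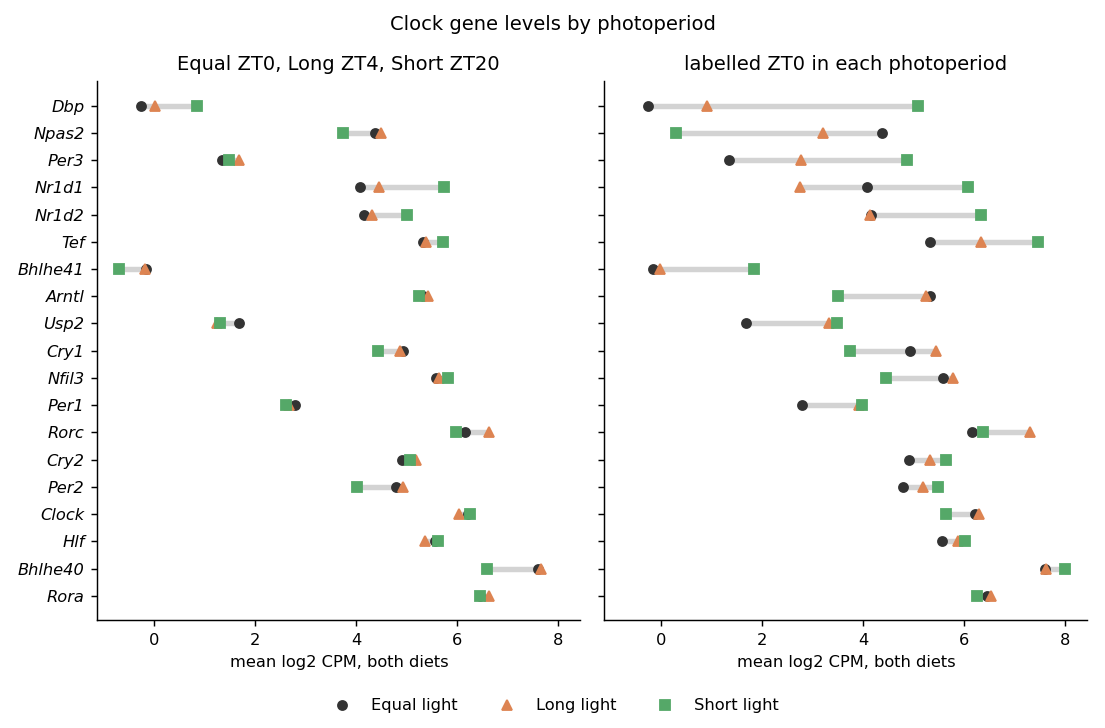
Mean log2 CPM of 19 clock genes in Equal (circles), Long (triangles) and Short light (squares) livers of both diets, at the matched times on the left and at labelled ZT0 on the right, with grey bars over the range of the 3 means. The bars are shorter on the left for 17 of the 19 genes; Dbp spans 5.33 at labelled ZT0.

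At the matched time, HFD livers had more RNA of pericentral hepatocyte genes such as Oat and Lgr5 and of Adgrv1, Dio1 and Gpc1, and less of Fabp5, Lepr, Ccl9 and ribosomal protein genes. Of the 13494 genes, 57 (0.422%) were called, 34 higher (0.252%) and 23 lower (0.170%) in HFD livers. All 57 had the same sign in Equal, Long and Short light, as had 36.3% of all genes tested. The calls rest on the difference over these same libraries, and that selection by itself makes a shared sign likely. The changes were mostly small: 9 of the increases and 6 of the decreases were over 2-fold, and 30 of the 57 were under 1.5-fold. The half-width of the 95% interval, which is not adjusted for the number of genes, was a median of 0.201 on the log2 scale over all genes. A call needs a larger difference than this interval alone, so genes without a call may differ by more. At an unadjusted p under 0.05, 998 genes (7.40%) were higher and 972 (7.20%) lower. No overlap between any HFD and any LFD library was seen for 5 genes that were higher (0.0371%) and 2 that were lower (0.0148%), and 6 of these were called. Leaving out 1 library gave 24 to 131 called genes: 24 to 37 without HFD Equal light replicate 1, 2 or 3, HFD Long light replicate 1 or 3, HFD Short light replicate 1 or LFD Long light replicate 2, 3 or 4, 126 without HFD Short light replicate 2, 131 without LFD Equal light replicate 3, and 71 higher with 42 lower without LFD Short light replicate 4. In all 20 such fits 23 of the 57 genes were called, and without the 4 pancreas-rich libraries 29 genes were called, 22 of them among the 57.

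**Figure D2:**
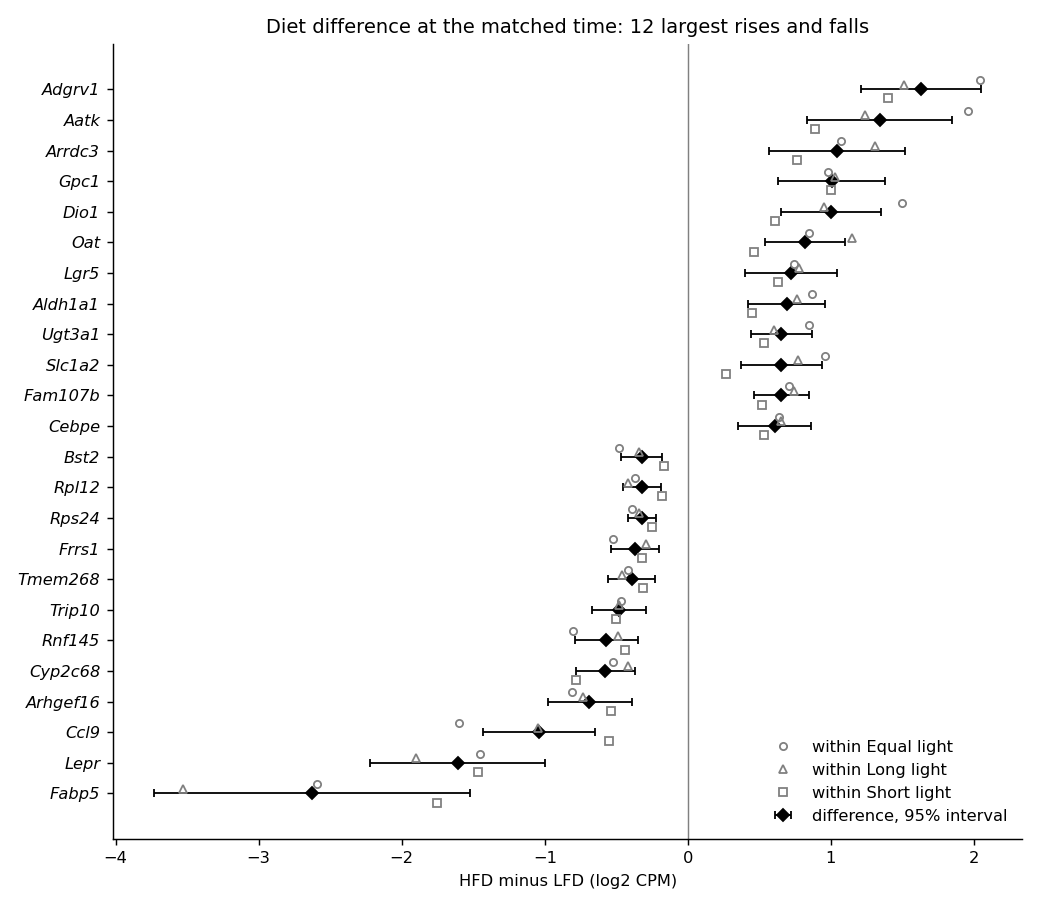
HFD minus LFD difference (log2 CPM) of the 12 largest increases and 12 largest decreases among called genes with a mean of at least 2 log2 CPM, with 95% intervals (diamonds, bars) and the values within each photoperiod (open symbols). Fabp5 fell by 2.63 and Adgrv1 rose by 1.63, and every open symbol lies on the same side of 0 as its diamond.

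The largest fall among called genes was that of Fabp5, which codes for a fatty acid binding protein of epidermis, fat and macrophages that fatty livers also make. It had 3.31, 2.24 and 3.16 log2 CPM in HFD Equal light, 2.84, 4.86 and 3.90 in HFD Long light and 2.31, 6.10 and 2.50 in HFD Short light livers. In LFD livers it had 7.59, 5.44 and 3.43 in Equal light, 6.01, 7.94, 8.13 and 7.53 in Long light and 5.06, 6.14, 5.10 and 5.27 in Short light. Most HFD libraries lay well below most LFD libraries, but 1 HFD Short light library was among the LFD values and LFD Equal light replicate 3 was among the HFD values. The difference was -2.63 ± 0.528 (SE; limma, Benjamini-Hochberg adjusted p = 0.0302), a 6.18-fold lower level. It was called in 10 of the 20 fits that left out 1 library, with a difference between -3.06 and -2.36 over all alternatives. The gene lies on chr3:10012548-10016607 of GRCm38.

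Lepr, the receptor of the fat-derived hormone leptin, fell to 1.83 ± 0.36 log2 CPM in HFD livers, against 3.48 ± 0.89 in LFD livers (SD, n = 9 and 11). Its HFD libraries ran from 1.31 through a median of 1.77 to 2.46, and its LFD libraries from 2.02 through 3.50 to 4.77. The groups overlapped only through LFD Long light replicate 3 (2.02) and LFD Equal light replicate 1 (2.24). The difference was -1.61 ± 0.292 (SE; limma, adjusted p = 0.015), with -1.45, -1.90 and -1.47 in Equal, Long and Short light. Without the 4 pancreas-rich libraries it was -1.52 and not called (limma, adjusted p = 0.0941). It was the only called gene of the 20 of insulin and growth signalling, whose median was -0.01.

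Ccl9, a chemokine that attracts myeloid cells, fell to 4.41 ± 0.40 in HFD livers, against 5.45 ± 0.47 in LFD livers (SD, n = 9 and 11; limma difference -1.04 ± 0.187 SE, adjusted p = 0.015). HFD libraries held 3.91 to 5.27 with a median of 4.42, and LFD libraries 4.88 to 6.56 with a median of 5.34. A single HFD library, Short light replicate 2 (5.27), lay within the LFD range. The highest LFD value, 6.56, was that of LFD Equal light replicate 3, the library rich in macrophage markers. Without that library the difference was -0.91 and still called (limma, adjusted p = 0.00555). Of 19 macrophage and Kupffer cell markers, 3 were higher and 1 lower at an unadjusted p under 0.05 and none was called, with a mean of 3.40 to 4.41 log2 CPM in HFD and 2.95 to 4.94 in LFD livers; their part in the fall of Ccl9 was not tested.

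Ppp1r3g codes for a subunit that targets protein phosphatase 1 to glycogen in the liver. It was near the detection floor, at -3.61, -3.61 and -2.57 log2 CPM in HFD Equal light, -2.59, -2.24 and -1.98 in HFD Long light and -1.71, -0.58 and -1.70 in HFD Short light livers. LFD livers had 0.07, -0.79 and -1.24 in Equal light, 0.20, 0.57, -0.68 and -1.19 in Long light and -0.75, -0.80, -0.67 and -1.16 in Short light. The groups did not overlap in Equal and Long light and overlapped in Short light. The difference was -1.66 ± 0.334 (SE), with an adjusted p of 0.0302 in limma, and -3.61 stands for 0 reads. The gene passed the filter of 1 CPM in 3 libraries only through LFD livers, which by itself favours a fall. It was the only called gene of the 19 of gluconeogenesis and the fasting response, whose median was -0.12, and was not called without the 4 pancreas-rich libraries (-1.82; limma, adjusted p = 0.0742).

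The other large decreases were of several kinds. Cyp2c68, a cytochrome P450 of a family with near-identical copies, fell by 0.58 ± 0.099, and Rnf145, a ubiquitin ligase of the endoplasmic reticulum that acts on sterol synthesis, by 0.57 ± 0.105 (SE; limma, adjusted p = 0.0113 and 0.0178). Trip10, an adaptor of membrane curvature, fell by 0.48 and Arhgef16, an exchange factor of small GTPases, by 0.69, a call lost in 12 of the 20 fits without 1 library. Tmem268 fell by 0.39 ± 0.078 (SE; limma, adjusted p = 0.0286), with 6 such losses. Frrs1, a member of the ferric reductase family, fell by 0.37 with no overlap: HFD libraries held 4.95 to 5.29 and LFD libraries 5.38 to 6.20. Its adjusted p was 0.0457 (limma), and the call was lost in 14 of the 20 fits without 1 library. Bst2 (tetherin), which holds budding viruses at the cell surface, fell by 0.32 and was the only called gene of the 17 of the interferon response, whose median was 0.10. The call of Bst2 was lost in 13 of those fits, and without the 4 pancreas-rich libraries (-0.24; limma, adjusted p = 0.115). Gm2a, the activator protein for the lysosomal breakdown of ganglioside GM2, fell by 0.63 ± 0.098 (SE; limma, adjusted p = 0.00592); its symbol has the form of an unnamed gene model, which the naming rule leaves out, so it was chosen after its values were seen.

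**Figure D3:**
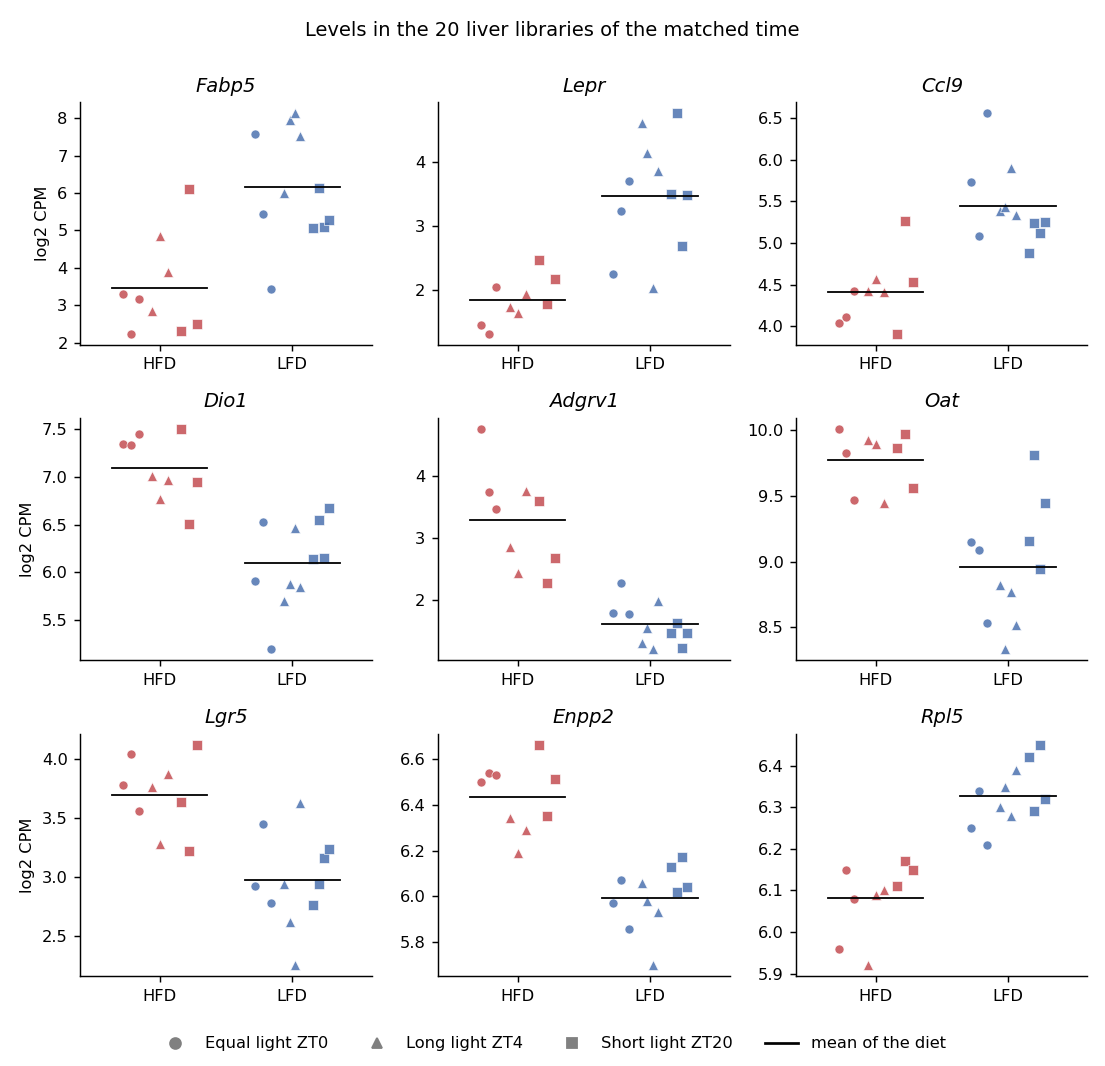
Log2 CPM of 9 called genes in each of the 20 libraries, HFD left of LFD, with circles for Equal, triangles for Long and squares for Short light and a bar at the mean of each diet (axes do not start at 0). Enpp2 and Rpl5 show no overlap between diets, and Adgrv1 touches it, at 2.27 in both.

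Among the increases, Adgrv1, a very large adhesion receptor known from hair cells and the retina, had 4.75, 3.73 and 3.46 log2 CPM in HFD Equal light, 2.85, 2.44 and 3.76 in HFD Long light and 3.60, 2.27 and 2.67 in HFD Short light livers. In LFD livers it had 1.79, 2.27 and 1.77 in Equal light, 1.31, 1.55, 1.20 and 1.98 in Long light and 1.47, 1.62, 1.22 and 1.46 in Short light. Before rounding, every HFD library was above every LFD library, the nearest pair being 2.27 and 2.27. The difference was 1.63 ± 0.202 (SE; limma, adjusted p = 6.61e-04), a 3.10-fold higher level. The gene lies on chr13:81095068-81633154 of GRCm38, minus strand.

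Dio1, the type 1 deiodinase that turns thyroxine into active thyroid hormone and is itself a target of that hormone, had 7.34, 7.33 and 7.45 log2 CPM in HFD Equal light, 7.01, 6.77 and 6.97 in HFD Long light and 7.50, 6.51 and 6.95 in HFD Short light livers. LFD livers had 5.91, 6.53 and 5.19 in Equal light, 5.70, 5.88, 6.46 and 5.85 in Long light and 6.14, 6.55, 6.15 and 6.67 in Short light. The diets were apart in Equal and Long light and overlapped in Short light. The level was 2.0-fold higher in HFD livers (log2 difference 1.0 ± 0.168, SE; limma, adjusted p = 0.0101).

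The smallest adjusted p belonged to Enpp2, Adgrv1 and Agxt2 (6.61e-04 each, limma), of which Enpp2 and Agxt2 changed by less than 1.5-fold. Enpp2, the secreted enzyme autotaxin that makes lysophosphatidic acid, rose by 0.44 ± 0.053 (SE), with 6.19 to 6.66 log2 CPM in HFD and 5.70 to 6.17 in LFD livers. Agxt2, a mitochondrial aminotransferase that breaks down beta-aminoisobutyrate and dimethylarginine, rose by 0.48 ± 0.060 (SE), with 7.63 to 8.03 in HFD and 7.07 to 7.45 in LFD livers. Neither overlapped between diets; both fall outside the naming rule by their size and were chosen after their values were seen.

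The remaining large increases covered signalling and metabolism. Aatk, a membrane-bound kinase known from neurons, rose by 1.34 ± 0.244 and Gpc1, a heparan sulfate proteoglycan of the glypican family, by 1.01 ± 0.179 (SE; limma, adjusted p = 0.0158 and 0.015). Gpc1 differed by almost the same amount in Equal, Long and Short light, at 0.98, 1.03 and 1.0. Arrdc3, an arrestin-like adaptor of receptor traffic, rose by 1.04 ± 0.229 (SE; limma, adjusted p = 0.0495) and lost its call in 13 of the 20 fits without 1 library. Aldh1a1, which makes retinoic acid from retinal, rose by 0.69 and Ugt3a1, a sugar-transferring conjugation enzyme, by 0.65. Cebpe, a C/EBP transcription factor best known from granulocytes, rose by 0.61 and lost its call in 11 of those fits, while the neutrophil markers S100a9 and Mmp9 had differences of -0.81 and -0.25 and did not pass the test. Fam107b rose by 0.65 ± 0.094 (SE; limma, adjusted p = 0.003). Of the 9 increases over 2-fold, 5 were of genes with a mean under 2 log2 CPM: Obp2a (2.18), Tmem28 (1.67), Mup-ps14 (1.62), Dusp14 (1.36) and Vmn2r20 (1.18). All but Dusp14 fall outside the naming rule and were chosen after their values were seen. Obp2a was called in 10 of the 20 fits without 1 library, Tmem28 in 7, Mup-ps14 in 9, and Dusp14 and Vmn2r20 in 20. Tmem28 had -1.53 log2 CPM in LFD Equal light replicate 3, and its difference was 1.33 without that library. Without the 4 pancreas-rich libraries, Mup-ps14, Dusp14 and Vmn2r20 were not called (limma, adjusted p = 0.143, 0.0742 and 0.0771). Obp2a codes for an odorant-binding lipocalin, Dusp14 for a MAP kinase phosphatase, and Mup-ps14 and Vmn2r20 belong to families of near-identical copies, so that their counts are uncertain. Mup-ps14 and Dusp14 passed the filter of 1 CPM in 3 libraries only because of HFD livers, which by itself favours a rise.

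Pericentral hepatocyte genes were higher in HFD livers. Of 18 in the list, 6 were called higher and none lower, against 0.252% of all genes higher. Their median difference was 0.43, against 0.00 over all genes, with 0.59, 0.42 and 0.20 in Equal, Long and Short light. Over the other 5 times the median was 0.25 and 14 of the 18 were called higher, against 1592 of all 14397 genes. Oat, the ornithine aminotransferase, had 10.01, 9.83 and 9.47 log2 CPM in HFD Equal light, 9.93, 9.90 and 9.45 in HFD Long light and 9.87, 9.97 and 9.56 in HFD Short light livers. LFD livers had 9.15, 9.09 and 8.53 in Equal light, 8.82, 8.33, 8.77 and 8.52 in Long light and 9.16, 9.81, 8.94 and 9.45 in Short light. Diets were apart in Equal and Long light, and 1 LFD Short light library, replicate 2 (9.81), lay among the HFD values. The difference was 0.82 ± 0.134 (SE; limma, adjusted p = 0.00838), a 1.76-fold higher level.

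Lgr5, a receptor that strengthens Wnt signalling and marks cells next to the central vein, rose to 3.70 ± 0.31 in HFD livers, against 2.97 ± 0.39 in LFD livers (SD, n = 9 and 11; limma difference 0.72 ± 0.154 SE, adjusted p = 0.0457). Its call was lost in 14 of the 20 fits without 1 library, and without the 4 pancreas-rich libraries (0.68; limma, adjusted p = 0.0678). Slc1a2, a glutamate transporter, rose by 0.65 ± 0.135 and Lect2, a secreted hepatokine, by 0.49 ± 0.072 (SE; limma, adjusted p = 0.0351 and 0.003). Slc1a2 lost its call in 12 of those fits and Lect2 in none. Gulo, which completes vitamin C synthesis in mice, rose by 0.44 and lost its call in 7. Lect2 libraries ran from 6.51 to 6.96 log2 CPM in HFD and from 5.91 to 6.56 in LFD livers. For Slc1a2 the LFD libraries were spread most widely, from 5.78 to 7.50, against 7.17 to 7.54 in HFD livers. All 3 highest LFD values of Slc1a2 were those of Short light livers, where the difference was 0.27, against 0.96 in Equal and 0.77 in Long light.

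At an unadjusted p under 0.05, without passing the adjustment, 5 further pericentral genes were higher: Slc13a3 (0.73), Cyp2e1 (0.65), Cyp1a2 (0.54), Glul (0.50) and Nkd1 (0.34). Some other Wnt target genes of the list were nearer to 0 than Nkd1, with 0.14 for Rnf43, 0.13 for Znrf3, -0.07 for Axin2 and -0.11 for Tbx3. Cyp7a1, the rate-limiting enzyme of bile acid synthesis and strongly daily, had -0.72 ± 0.513 (SE) and did not pass the test; over the other 5 times its difference was 0.73. Of 16 periportal genes none was called, 1 was higher and 2 lower at an unadjusted p under 0.05, and the median was -0.07. The 2 lists were not tested against each other. Without the 4 pancreas-rich libraries, 2 pericentral genes were called and the median was 0.31; without LFD Equal light replicate 3 alone, 7 were called and the median was 0.33. The count was 2 without HFD Equal light replicate 1 or 3 or HFD Long light replicate 1 or 3, and 3 without HFD Equal light replicate 2, HFD Short light replicate 1 or LFD Long light replicate 2 or 3, while the median stayed between 0.33 and 0.45 in all 20 fits without 1 library.

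Promoters of Lect2 and Slc1a2 are shown because both genes rose and both hold the TCF element CTTTGAT, in capitals as ATCAAAG on the printed strand, which the factors that carry Wnt signals to DNA can bind (RefSeq, build GRCm38.p6, 250 bases before to 50 after the start, 5' to 3').
Lect2 promoter, chr13:56548489-56548788, minus strand: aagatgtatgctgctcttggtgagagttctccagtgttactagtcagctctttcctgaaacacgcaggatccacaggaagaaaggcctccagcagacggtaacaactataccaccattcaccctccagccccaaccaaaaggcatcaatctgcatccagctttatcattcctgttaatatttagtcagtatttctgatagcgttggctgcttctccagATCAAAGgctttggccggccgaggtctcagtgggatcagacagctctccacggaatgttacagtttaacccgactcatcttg
Slc1a2 promoter, chr2:102706188-102706487, plus strand: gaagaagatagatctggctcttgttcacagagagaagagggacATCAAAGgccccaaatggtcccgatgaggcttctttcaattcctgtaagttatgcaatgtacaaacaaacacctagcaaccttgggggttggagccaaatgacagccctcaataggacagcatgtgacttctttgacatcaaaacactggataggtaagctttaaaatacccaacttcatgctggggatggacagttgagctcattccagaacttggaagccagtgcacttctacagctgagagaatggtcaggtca
The element, searched on both strands after the calls were known, was in 3 of 12 promoters of the pericentral list that the table held (Lect2, Slc1a2 and Psmd4) and in 3.73% of all 32851 promoters. It lay 32 bases before the annotated start in Lect2 and farther upstream in Slc1a2. The Slc1a2 start used here lies inside the annotated gene, which spans chr2:102658659-102790784. Psmd4 had a difference of 0.09 and did not pass the test. Among the promoters of called genes, 4 of 32 of those that rose (12.5%) and 1 of 25 of those that fell (4.00%) held it, Agxt2 giving 2 of the 4 through neighbouring starts. The E-box CACGTG, the site of clock activators, was in 6 of 57 promoters of called genes (10.5%) and in 7.15% of all promoters. A match of letters is a description and not a bound site.

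Cytosolic ribosomal protein genes were lower by a small amount, with medians of -0.18 in Equal, -0.20 in Long and -0.10 in Short light. Over the other 5 times their median was -0.19, and 77 of the 79 tested were called lower, against 10.5% of all genes. Of 79 genes of the family, which was gathered after the calls were known, 8 were called lower and 54 were lower at an unadjusted p under 0.05, against 0.170% and 7.20% of all genes; 78 of the 79 differences were negative, with a median of -0.16. Rpl5, a protein of the large subunit, had 5.96, 6.15 and 6.08 log2 CPM in HFD Equal light, 5.92, 6.09 and 6.10 in HFD Long light and 6.11, 6.17 and 6.15 in HFD Short light livers. LFD livers had 6.25, 6.34 and 6.21 in Equal light, 6.30, 6.35, 6.28 and 6.39 in Long light and 6.42, 6.29, 6.45 and 6.32 in Short light. Every HFD library was below every LFD library, by as little as 0.04. The difference was -0.24 ± 0.040 (SE; limma, adjusted p = 0.00865). Rps24 fell by 0.32 ± 0.047 and Rpl12 by 0.32 ± 0.061 (SE; limma, adjusted p = 0.003 and 0.022); Rps27a, Rpl36a, Rpl17, Rpl30 and Rps3a1 were the others called. With each library centred on its own median the count was 7 and the family median -0.15; without the 4 pancreas-rich libraries it was 2 and -0.14. Leaving out 1 library gave 3 to 17 calls and 45 to 63 genes at an unadjusted p under 0.05; the lowest count came without HFD Equal light replicate 1, HFD Long light replicate 1 or 3 or HFD Short light replicate 1, and the highest without HFD Short light replicate 3. Ribosomal protein genes have many processed pseudogenes, so their counts are uncertain, and 8 genes that move together within a library are not 8 separate observations. None of 18 ribosome biogenesis factors was called (median -0.08), with Npm1, a nucleolar chaperone, nearest at -0.24 (limma, adjusted p = 0.0635).

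**Figure D4:**
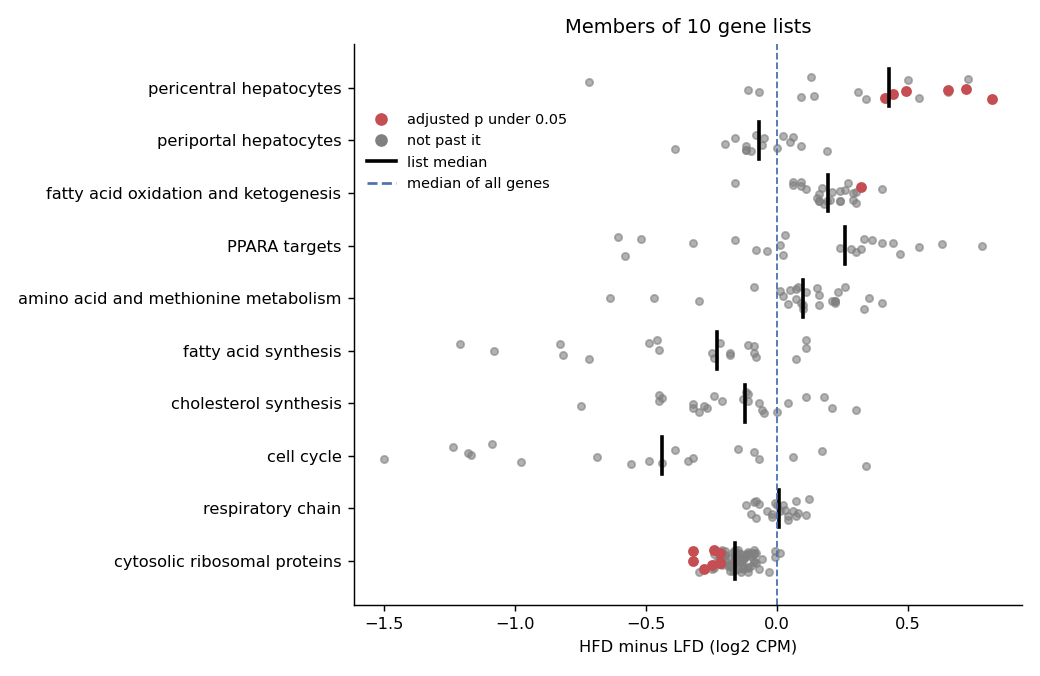
HFD minus LFD difference (log2 CPM) of each tested member of 10 gene lists, red where the adjusted p is under 0.05, with a black bar at the list median and a dashed line at the median of all genes. Pericentral genes centre on 0.43 and ribosomal protein genes lie in a narrow band around -0.16; cell cycle genes scatter widely around -0.44 with none called.

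Genes of fatty acid oxidation and ketogenesis were mostly a little higher in HFD livers. Of 26, 1 was called, 13 were higher and none lower at an unadjusted p under 0.05 (7.40% and 7.20% of all genes), and 25 differences were positive with a median of 0.20. Hadh, Acads and Acadvl, dehydrogenases of the beta-oxidation spiral, had 0.30, 0.26 and 0.18 and did not pass (limma, adjusted p = 0.0886, 0.116 and 0.118). Of 22 targets of the fat-sensing receptor PPARA none was called, 6 were higher and 1 lower before adjustment (p under 0.05), and the median was 0.26.

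Genes of fat and sterol synthesis did not pass the test at this time. Of 20 genes of fatty acid synthesis, 17 had negative differences with a median of -0.23, and 3 were lower at an unadjusted p under 0.05: G6pdx (-1.08), Scd1 (-1.21) and Me1 (-0.82). Scd1, the delta-9 desaturase, ran from 9.95 to 14.79 log2 CPM in HFD and from 13.62 to 16.09 in LFD livers, the lowest value being that of HFD Short light replicate 3. Without that library its difference was -0.78. Fasn, the fatty acid synthase, had -0.22 ± 0.463 and Acly, which supplies its acetyl-CoA, -0.24 ± 0.373 (SE). Over the other 5 matched times, 15 of the 20 genes were called lower, against 10.5% of all genes there, with a median of -0.54 and a Fasn difference of -0.79. Cholesterol synthesis showed 0 of 24 genes called and a median of -0.12 here, against 16 called lower and -0.39 at the other times. The other times hold more libraries and so resolve smaller differences, and no gene of either list passed the test of this time against the others. None of the 12 lipogenic regulators was called, and none had an unadjusted p under 0.05 (median 0.10). Without LFD Equal light replicate 3, the median of fatty acid synthesis was -0.47 and 8 genes were lower at an unadjusted p under 0.05, with none called.

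Drug and bile genes had differences of both signs and none was called. Of 19 genes around the receptors CAR and PXR none was called, 7 were higher and 2 lower at an unadjusted p under 0.05. Cyp2b9, a CAR target with female-biased expression, had the largest difference of any gene tested, 3.62 ± 0.981 (SE; limma, adjusted p = 0.0921). It ran from 0.04 to 6.35 log2 CPM in HFD and from -3.61 to 3.17 in LFD livers, with wide overlap. Cyp2a5 had 0.65 ± 0.160 and Nr1i3, the gene of CAR itself, 0.84 ± 0.244 (SE; limma, adjusted p = 0.0733 and 0.113). Among 23 bile acid genes, Abcc3, an exporter into blood, had 0.78 and Abcg5, a subunit of the sterol exporter into bile, -0.48, and neither passed. Of 27 amino acid genes 9 were higher at an unadjusted p under 0.05 and none lower, with Tdo2 and Sardh, which degrade tryptophan and sarcosine, at 0.35 and 0.40 and none called. Respiratory chain genes stayed at a median of 0.00 with 0 of 22 called.

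Cell cycle genes had a median of -0.44, and none of 19 was called. Cdk1, the kinase that starts mitosis, had a difference of -1.24 ± 0.572 and Ccna2, its cyclin partner, -1.18 ± 0.602 (SE; limma, adjusted p = 0.325 and 0.375). High values sat in single LFD libraries: Cdk1 had 3.76 and 4.44 log2 CPM in LFD Equal light replicates 1 and 3, 2.84 in LFD Long light replicate 3 and 3.25 in LFD Short light replicate 2, while the highest HFD library had 1.61. The list median was -0.31 without LFD Equal light replicate 3. Pancreas acinar genes had a median of -2.23 with none of 12 called, and pancreas markers were above 4 log2 CPM in 1 HFD and 3 LFD libraries; without these 4 the median was -0.55.

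The diet difference could be compared with that at the other 5 matched times, since all libraries can be ordered by clock phase in the same way. In a limma fit of all libraries over 14397 genes, 144 genes were called at this time, against 57 in the fit of the 20 libraries. The same fit covered the matched times 4, 8, 12, 16 and 20 h later on the Equal light scale. There 2 (0.0139%), 69 (0.479%), 71 (0.493%), 293 (2.04%) and 488 (3.39%) genes were called, in that order. Over the other 5 times together, 3108 genes were called (21.6%). Of the 57 genes called here, 56 were also called in those libraries, which the 57 calls did not use, and all 57 had the same sign there. At the time 4 h later, where only 2 genes were called in all, the same 57 genes all kept their sign with a median ratio of 0.52 to the difference here. The ratio was 0.68, 0.59, 0.79 and 0.84 at 8, 12, 16 and 20 h, with the sign kept by 56, 56, 56 and 57 genes. These genes were selected on their values at this time, and that selection by itself makes ratios under 1 likely.

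**Figure D5:**
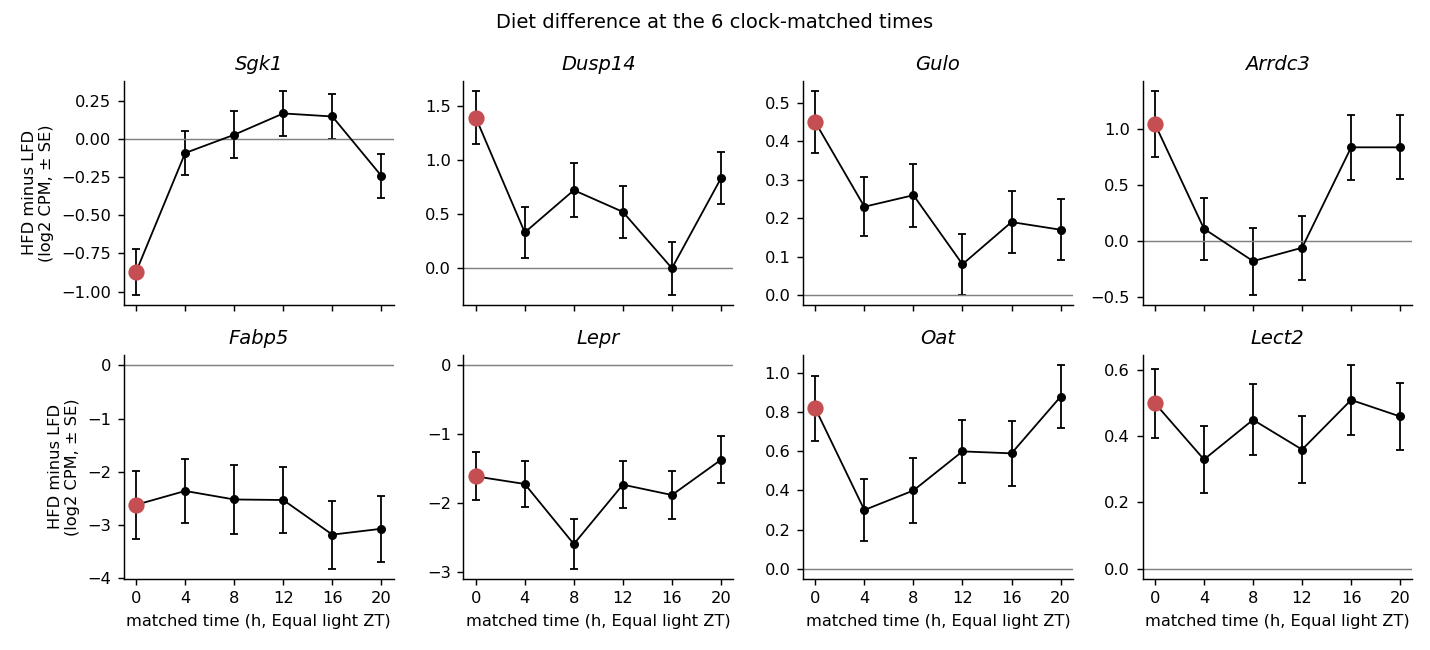
HFD minus LFD difference (log2 CPM, mean over photoperiods ± SE of the limma fit of all libraries) of 8 genes at the 6 clock-matched times, named by the Equal light ZT in hours, with a red point at the time described here. Fabp5 and Lepr stay below 0 and Oat and Lect2 above 0 at all 6 times, while Sgk1 is at -0.87 here and within 0.25 of 0 elsewhere.

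A test of whether the diet difference at this time differed from that at the other 5 called 1 gene of 14397 (0.00695%), Sgk1, the serum and glucocorticoid regulated kinase that acts on ion transport. At this time Sgk1 had 4.87, 4.48 and 4.59 log2 CPM in HFD Equal light, 4.33, 4.74 and 4.40 in HFD Long light and 4.39, 3.98 and 3.95 in HFD Short light livers. LFD livers had 5.12, 5.33 and 7.23 in Equal light, 5.46, 4.95, 4.97 and 5.49 in Long light and 4.30, 4.56, 5.17 and 4.98 in Short light. The diets were apart in Equal and Long light and overlapped in Short light through the lowest LFD library. In the fit of all libraries the difference was -0.87 ± 0.150 here and 0.00 over the other times, which leaves -0.88 (SE of the fit at this time, limma, adjusted p = 0.00896). In the fit of the 20 libraries alone the diet difference was -0.86 and did not pass the test (limma, adjusted p = 0.0686). At the times 4, 8, 12, 16 and 20 h later the diet difference was -0.09, 0.03, 0.17, 0.15 and -0.24 in the fit of all libraries. The value 7.23 is that of LFD Equal light replicate 3: without it the contrast was -0.66 and no longer called (limma, adjusted p = 0.311), nor was it without the libraries of all times that were rich in pancreas or skeletal muscle markers (-0.65; adjusted p = 0.895, limma). It was called in the other 26 of 28 alternatives, with adjusted p as low as 2.71e-04.

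None of the 57 called genes passed the same test (limma, lowest adjusted p = 0.997), although 9 of them had an unadjusted p under 0.05, against 3.63% of all genes. Their selection on values at this time by itself favours such a difference. The smallest was that of Dusp14, with 1.39 ± 0.243 here and between 0.00 and 0.83 at the other times (SE; unadjusted p = 9.32e-04, limma). Ccl9 had -1.07 ± 0.154 here and -0.40 to -0.74 at the others (unadjusted p = 0.00206, limma). Gulo had 0.45 ± 0.081 here and 0.08 to 0.26 at the others (unadjusted p = 0.00313, limma). Glul, the glutamine synthetase confined to the ring of cells at the central vein, had 0.52 ± 0.106 here and 0.07 to 0.19 at the others (unadjusted p = 0.0019, limma). Its HFD libraries ran from 10.09 to 10.63 log2 CPM and its LFD libraries from 8.10 to 10.20, the lowest value being that of LFD Equal light replicate 3. In the 20 libraries its difference was 0.50, and 0.29 without that replicate. Glul was named by the rule for the difference between times, as was Dusp14.

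Whether the diet difference at this time depended on photoperiod was asked in a fit with 1 mean per group. Of 13494 genes 1 (0.00741%) was called, Casp6, a caspase that cuts lamins in dying cells (limma F test, adjusted p = 0.0425), and 580 genes had an unadjusted p under 0.05. On simulated data this test called 4% of 1.5-fold and 40% of 2-fold diet differences placed in Long light alone. Genes without a call may therefore still differ between photoperiods. Casp6 had 3.71, 3.52 and 3.65 log2 CPM in HFD Equal light livers, against 4.14, 3.94 and 3.98 in LFD Equal light livers. In Long light it had 3.95, 3.92 and 3.97 in HFD livers, against 3.68, 3.61, 3.70 and 3.63 in LFD livers. In Short light it had 4.52, 4.36 and 4.51 in HFD livers, against 4.01, 4.08, 3.77 and 3.91 in LFD livers. The diets did not overlap in any photoperiod, with HFD lower in Equal light (-0.39) and higher in Long (0.29) and Short light (0.52). The call held under 5 of 28 alternatives, with adjusted p from 0.0143 to 0.979. Within a single photoperiod, 3 HFD against 3 or 4 LFD libraries called no gene in limma, while 1530, 823 and 1023 genes had an unadjusted p under 0.05 in Equal, Long and Short light.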

How the data were processed

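The authors deposited 1 table of log2 CPM values for 15398 genes, made from polyadenylated, stranded mouse liver RNA-seq per the labels' protocols. The submitters' processing notes name STAR, featureCounts of Subread 1.6.2 and the builds mm10 and GRCm38; their options, the annotation and the normalization are not stated. All libraries share a lowest deposited value of -3.61, which is the value of 0 reads. Reads recovered from the steps between low values were whole (within 0.05 read) for 100% of values.

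Genes that reached 1 CPM in 3 or more libraries were tested with limma-trend 3.58.1 in R 4.3.3, checked on simulated data, with photoperiod as a block, and Benjamini-Hochberg adjustment over all genes tested. The count models planned for reads were not used as the main test, since the deposited values are log2. The 24 pairs of libraries within a group differed beyond sampling noise (chi-square per degree of freedom of at least 14.33), so none was counted as a duplicate. Replicate numbers only name libraries.

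Members and lists were chosen with earlier results of these data known; ribosomal protein genes, mitochondrial genome genes (20 tested, none called, median 0.12) and the TCF element were added after the calls were seen. The naming rule took the 12 largest called increases and decreases with a mean of at least 2 log2 CPM, up to 4 genes per list by p, all clock genes, and 6 genes per direction by p for the difference between times; the text gives part of these, and other genes were chosen after their values were seen, and some genes are not reported here. Alternatives were limma-voom on recovered reads (47 genes called), other filters, pseudocount and scaling, library weights, library number as covariate, the spread of all libraries, labelled ZT0, and leaving out libraries.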

Additional observations from a re-analysis of the deposited data

Results flagged for a closer look

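Some values stood far from the other 3 libraries of their group, by the gap to the nearest of them relative to the group's range; chance alone gives this in about 1 in 20 groups, and it was seen in 16 of 224 checks. Only groups of 4 libraries, LFD Long light ZT4 and LFD Short light ZT20, were checked. The HFD groups and LFD Equal light ZT0, with 3 libraries each, were not. All flagged values are in log2 CPM. In LFD Long light ZT4 livers these were Ccl9 in replicate 3 (5.90, highest, the others 5.34 to 5.43), Cebpe in replicate 4 (2.74, highest, the others 2.39 to 2.44) and Acads in replicate 2 (7.46, highest, the others 7.29 to 7.30). The same group held Stab2 in replicate 3 (6.33, lowest, the others 6.69 to 6.74), Ecm1 in replicate 3 (6.39, lowest, the others 6.92 to 6.95), Cdk1 in replicate 3 (2.84, highest, the others 0.02 to 0.25) and the pancreas acinar marker mean in replicate 4 (7.03, highest, the others -1.89 to -0.90). In LFD Short light ZT20 livers these were Gpc1 in replicate 1 (2.80, lowest, the others 3.41 to 3.50), Cebpe in replicate 4 (3.07, highest, the others 2.36 to 2.39), Saa4 in replicate 2 (7.42, lowest, the others 7.92 to 7.96) and Cyp2b9 in replicate 4 (3.17, highest, the others -1.71 to -1.29). The same group held Abcg5 in replicate 1 (7.24, highest, the others 6.70 to 6.79), Acads in replicate 4 (7.69, highest, the others 7.34 to 7.37), Cideb in replicate 4 (6.17, highest, the others 5.75 to 5.81), Nop56 in replicate 2 (3.67, lowest, the others 4.24 to 4.35) and the erythroid marker mean in replicate 3 (2.91, lowest, the others 3.62 to 3.71).

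The diet difference of Casp6 differed between photoperiods (limma F test, adjusted p = 0.0425), lower in HFD livers in Equal light and higher in Long and Short light. The diet difference of Sgk1 at this time differed from that at the other 5 matched times by -0.88 on the log2 scale (limma, adjusted p = 0.00896).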

How the results depend on the processing

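The 57 genes called became 382 with libraries weighted by their distance from the fit of photoperiod and diet, and 144 with the spread of all libraries. The count was 29 without the 4 pancreas-rich libraries and 0 in libraries titled ZT0 in all photoperiods. Without 1 library the count ran from 24 to 131, and the cause was not tested. For diet by photoperiod the count of 1 became 0 with library number as covariate, with median-centred libraries, with no filter on low values and without the 4 pancreas-rich libraries, and ran from 0 to 1 without 1 library. For this time against the other 5, the count of 1 became 0 without libraries rich in pancreas or muscle markers and ran from 0 (without LFD Equal light replicate 3) to 2 (without LFD Equal light replicate 2). Within Equal light 33 genes were called with the spread of all libraries, and 0 to 175 without 1 library (175 without LFD Equal light replicate 2); within Long light 0 to 1 (1 without LFD Long light replicate 1) and within Short light 0 to 3 (2 without HFD Short light replicate 3, 3 without LFD Short light replicate 2). In libraries titled ZT0 in all photoperiods the differences of Cd5l (-0.02) and Pdk4 (0.00) turned their sign. No paired analysis was possible because the labels carry no shared replicate numbers.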

Other observations

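Some gene groups not described above held single large differences without a call. Among 23 acute phase genes, 4 were higher at an unadjusted p under 0.05 and none lower, with a median of 0.20; Orm3, an orosomucoid with near-identical copies, had 1.68, Saa4, a constitutive serum amyloid A of HDL, 0.61, and Hp, which binds free haemoglobin, 0.41. Chac1, which degrades glutathione in the integrated stress response, had 1.13 (limma, adjusted p = 0.0898) among 19 genes of the unfolded protein response with a median of 0.13. Nmrk1, a kinase that makes NAD from nicotinamide riboside, had -0.40 (limma, adjusted p = 0.0622). Of 24 genes of lipid droplets and lipid uptake, Fabp5 was the only one called, 8 were higher and 3 lower at an unadjusted p under 0.05, and the median was 0.19.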
